A study of Homo sapiens with 6 samples.

Results

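The mitotic G2/M genes described here are 57 genes whose products drive or carry out cell division, from the cyclins that switch on CDK1 to the proteins that build the spindle and cut the cell apart. They were taken by symbol from a table of 40488 Ensembl genes, and all 57 were found, each under 1 identifier. Kinesins with KIF symbols were left out, while CENPE, also a kinesin motor, is among the 57. RNA came from SCC90, an established cell line from an oropharyngeal squamous cell carcinoma carrying HPV16. In 1 group of 3 libraries the cells had been transfected with a siRNA against DeltaNp63 (siDNp63), the p63 form without the N-terminal transactivation domain, and in the other group of 3 with a scrambled siRNA (siCTRL). Both groups were harvested 72 h after transfection, from the same line and with no other treatment. The DeltaNp63 siRNA was used at 10 nM by the sample labels, while the methods of the study name a higher concentration, so the dose is not certain. All results rest on 1 line and 1 siRNA.

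During G2, cyclin A and cyclin B accumulate and load CDK1, which CDC25 phosphatases release from inhibitory phosphorylation, and the cell enters mitosis. Kinetochores assembled on CENPA-containing chromatin then capture spindle microtubules, and a checkpoint holds CDC20 and the anaphase-promoting complex (APC/C) back until every chromosome is attached. Most of these genes are transcribed late in the cycle, under MYBL2 and FOXM1 working with the MuvB complex, and are silent in cells that have left the cycle. HPV16 E7 removes the brake that the retinoblastoma proteins place on this programme.

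Libraries held between 35716277 and 52598831 expected counts, and 17257 genes passed the filter on low counts. Levels are given as TMM-normalized counts, which are expected counts scaled to a common library size, or as TPM, an abundance corrected for transcript length, where genes are set beside each other. Fold changes are siDNp63 over siCTRL on the log2 scale, with the standard error (SE), from the edgeR quasi-likelihood test, and a gene was called at an adjusted p under 0.05 over all genes tested. TP63 itself (ENSG00000073282, GRCh38 chr3:189631389-189897276), counted over all its isoforms, had 15520, 14474 and 15414 normalized counts in siDNp63 libraries, against 42319, 44204 and 43700 in siCTRL libraries, a log2 fold change of -1.52 (SE 0.04, adjusted p = 7.59e-07). The siDNp63 replicate 1 library stood apart on the second principal component (20.2% of the variance), at 39.1, against -25.6 and -24.8 for siDNp63 replicates 2 and 3. Of 6 squamous epithelial markers, KRT6A averaged 3694 TPM in siDNp63 and 3071 TPM in siCTRL libraries, CDH1 711 TPM in siDNp63 and 478 TPM in siCTRL libraries, EPCAM 599 TPM in siDNp63 and 420 TPM in siCTRL libraries and DSG3 43.7 TPM in siDNp63 and 35.4 TPM in siCTRL libraries, whereas the basal keratins KRT14 and KRT5 were at most 8.24 TPM in any library. All of these but KRT5 were called higher in siDNp63, with log2 fold changes of 0.62 for CDH1, 0.60 for EPCAM, 0.38 for DSG3, 0.25 for KRT6A and 1.42 for KRT14. The summed level of 5 leukocyte markers was 11.3 to 12.4 TPM in siDNp63 and 13.9 to 15.8 TPM in siCTRL libraries, and that of 5 fibroblast markers was 5.82 to 9.11 TPM in siDNp63 and 8.71 to 10.8 TPM in siCTRL libraries. The 3 endothelial markers summed to 3.71 to 4.56 TPM in siDNp63 and 0.979 to 1.35 TPM in siCTRL libraries, with CDH5 at no more than 0.112 TPM in any library. The endothelial marker VWF was called higher in siDNp63 (log2 fold change 0.88, adjusted p = 0.00264). The leukocyte marker CD14 (-1.26, adjusted p = 0.0329) and the fibroblast marker DCN (-1.32, adjusted p = 0.0284) were called lower. The part of these marker differences in the results for the mitotic genes was not tested.

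Of the 57 genes, 39 rose in siDNp63 cells, none fell and 18 were not called. Among all genes tested 18.4% were called higher and 15.2% lower. All 57 lie in the range of at least 500 normalized counts, and of the 9582 genes in it 26.4% were called higher and 1749 were called lower. The count of 0 lower genes by edgeR was also 0 at an unadjusted p under 0.05, by DESeq2 and by limma-voom, and the counts of higher genes were then 44, 42 and 39. Among the 9582 genes 3049, 2688 and 2503 were then higher and 2235, 1804 and 1784 lower. The changes were small. The median log2 fold change of the 57 genes was 0.26 (range 0.02 to 0.62, that is 1.01-fold to 1.53-fold). It was -0.02 over all genes tested and 0.02 over the 9582 genes. No gene of the 57 passed an absolute log2 fold change of 1, which 4.06% of all genes tested did with a call. In 44 of the 57 every siDNp63 library lay above every siCTRL library, which held for 24.7% of all genes tested and for 3228 of the 9582 genes. All 57 fold changes were above 0 with TMM scaling, beside 47% of all genes tested and 53.7% of the 9582 genes. With library size alone, which moved the median of all genes to -0.11, 51 of the 57 were above 0 and 34 were called. On log2(TPM + 1) with limma 54 of the 57 were above 0 and 23 were called. By that fit 1668 of all 17257 genes tested and 1274 of the 9582 genes were called higher. The RNA came from whole cultures, so more cells in G2 and mitosis and more mitotic RNA per cell cannot be told apart.

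**Figure D1:**
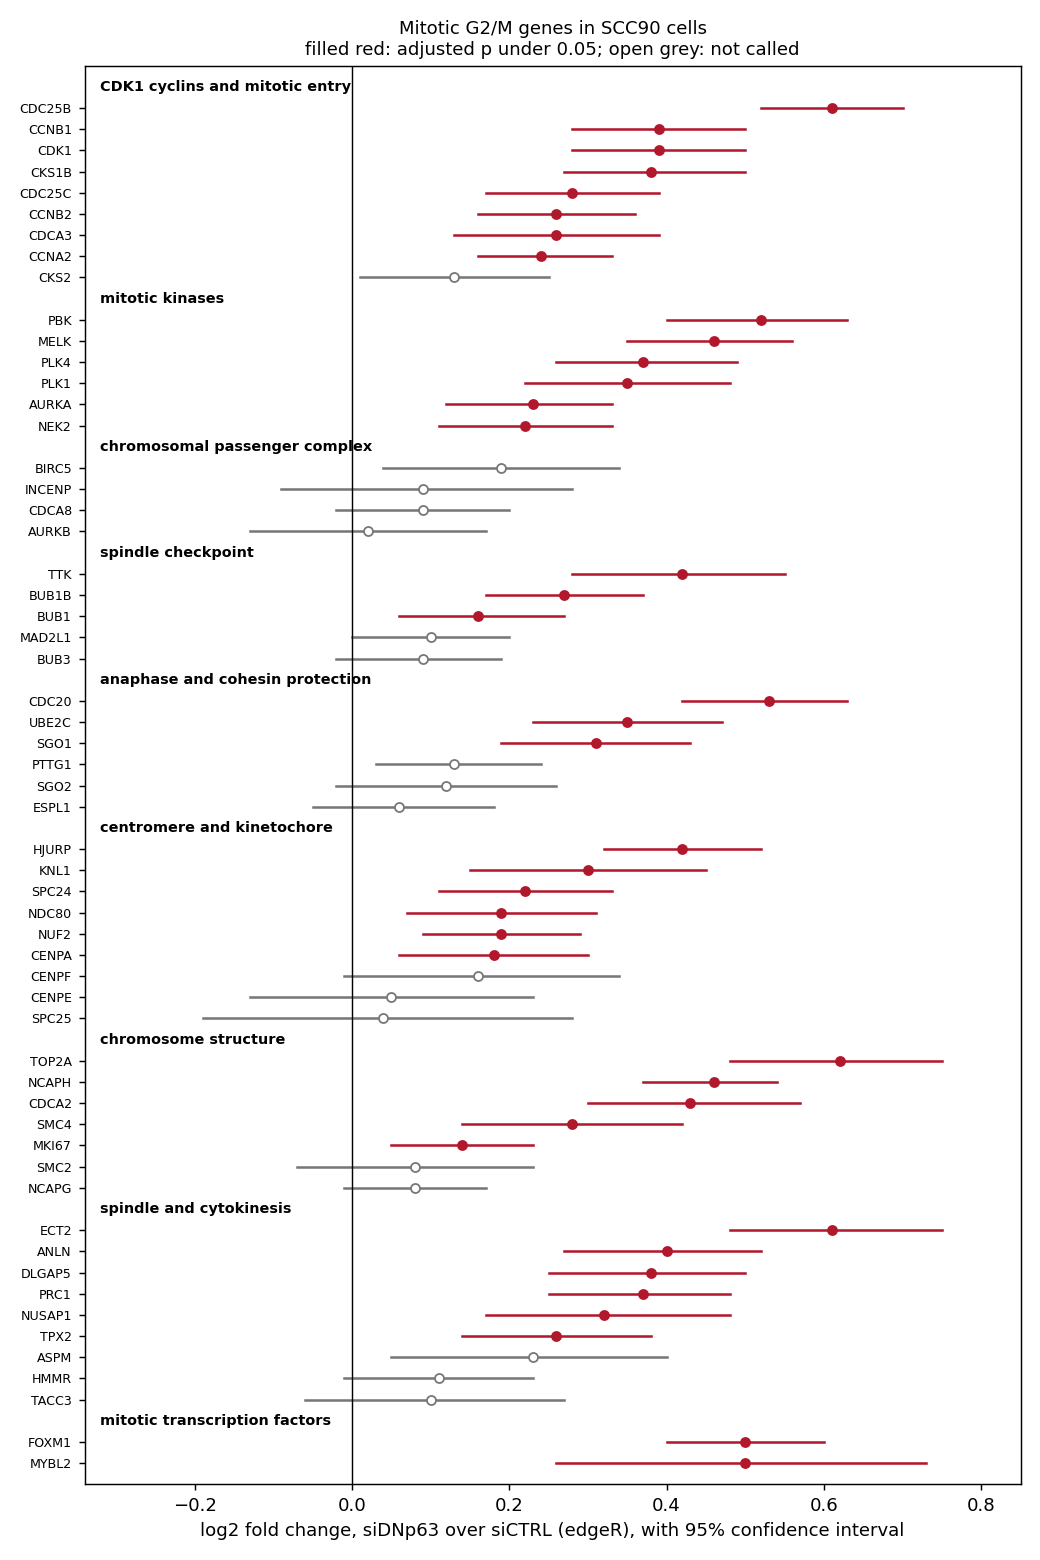
Log2 fold change, siDNp63 over siCTRL, of each of the 57 genes with its 95% confidence interval from edgeR, ordered by size within 9 role groups. Filled red points are the 39 genes called higher and open grey points the 18 that were not called, and every point lies to the right of 0 with this TMM scaling, against 51 of 57 with library size alone.

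The individual libraries showed the same order. Summed over the 57 genes, siDNp63 replicates 1, 2 and 3 held 10432, 9755 and 9922 TPM, and siCTRL replicates 1, 2 and 3 held 8239, 8616 and 8402 TPM, so the groups did not overlap. Against the siCTRL mean, the median gene lay at 0.31, 0.26 and 0.22 on the log2 scale in siDNp63 replicates 1, 2 and 3, against -0.04, 0.02 and 0.02 in siCTRL replicates 1, 2 and 3. The siDNp63 replicate 1 library was the highest of its group for 41 of the 57 genes and the lowest for 10. Its distance from the mean of the other siDNp63 libraries ran between -0.39 for MYBL2 and 0.28 for SPC25 on the log2 scale, with a median of 0.08. Without this library 42 genes were called higher and the median log2 fold change was 0.24. Within a group the normalized counts were tight, with a median coefficient of variation of 4.89% in siDNp63 and 3.45% in siCTRL libraries.

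**Figure D2:**
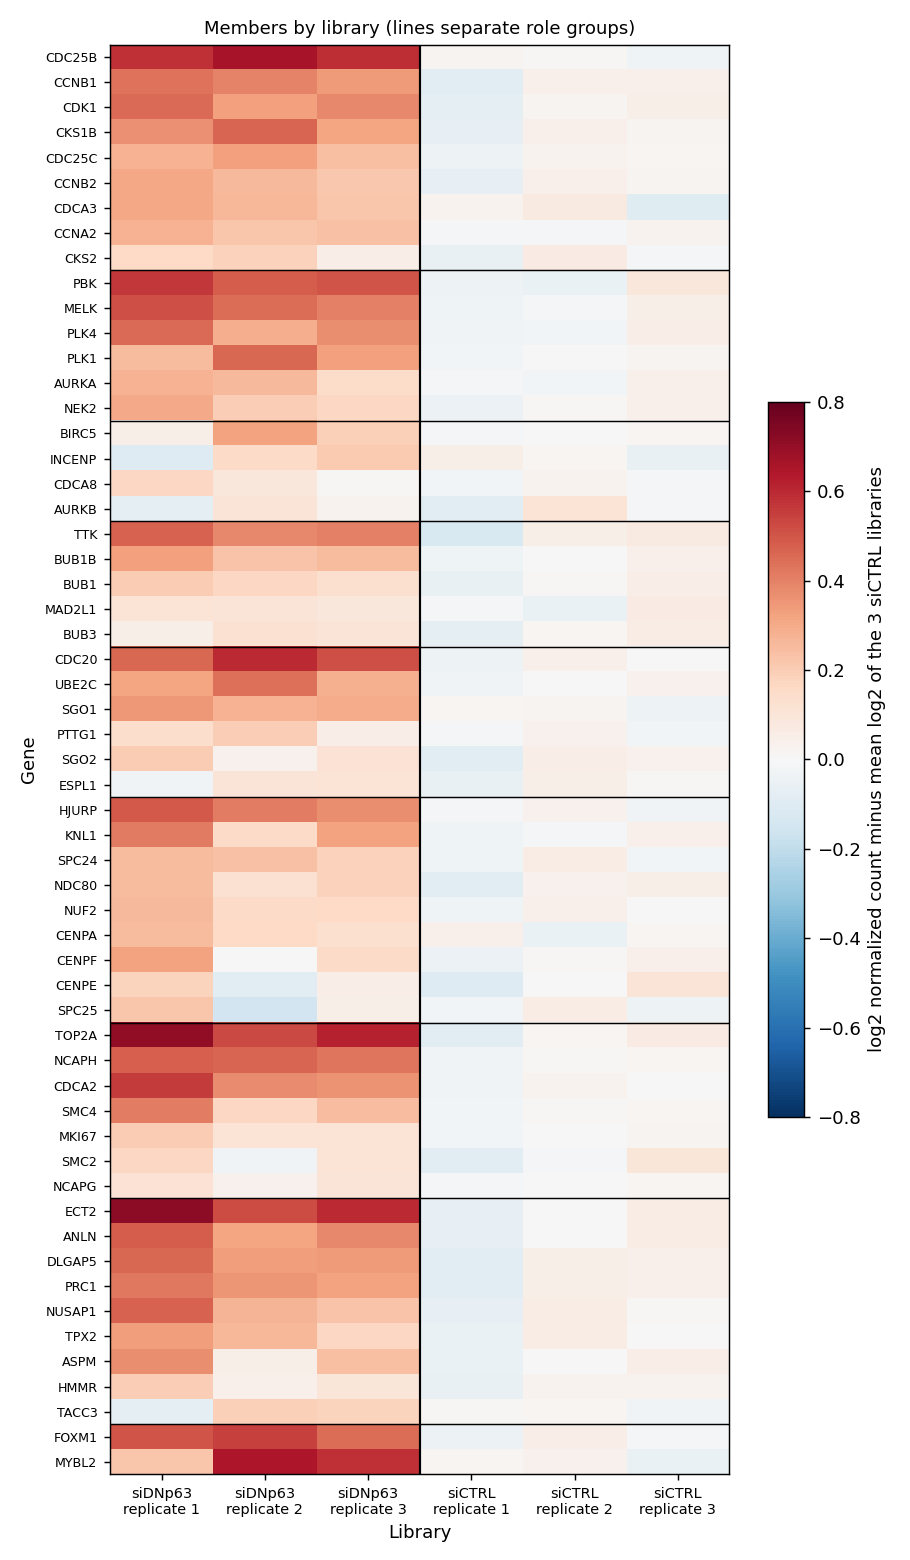
Log2 normalized count of each of the 57 genes in each library, minus the mean log2 of the 3 siCTRL libraries, with the siDNp63 libraries on the left. Red is higher and blue lower than the siCTRL mean, and the medians of the 6 columns are 0.31, 0.26 and 0.22 in siDNp63 and -0.04, 0.02 and 0.02 in siCTRL replicates 1, 2 and 3.

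In level, the 57 genes spanned 15.4 TPM for SGO1 to 1117 TPM for SMC4 as means of siCTRL libraries. The condensin ATPase SMC4 was the most abundant, with a mean of 1328 TPM in siDNp63 and 1117 TPM in siCTRL libraries. CCNB1 followed with 734 TPM in siDNp63 and 571 TPM in siCTRL libraries, then CKS1B with 568 TPM in siDNp63 and 451 TPM in siCTRL libraries and CDC20 with 628 TPM in siDNp63 and 433 TPM in siCTRL libraries. The median of the 57 genes was 99.7 TPM in siDNp63 and 86.4 TPM in siCTRL libraries. The 3 rarest genes, SGO1, SGO2 and SPC25, had siCTRL means of 15.4, 20.6 and 22.9 TPM.

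Promoters of late cell cycle genes are known for a short element, the cell cycle homology region, TTTGAA or TTCGAA, usually near the transcription start and downstream of CCAAT boxes, and the MuvB subunit LIN54 is known to contact it. RefSeq promoters, 250 bases before to 50 bases after the annotated start on GRCh38.p14, were at hand for 47 of the 57 genes. On either strand, TTTGAA or TTCGAA was present in 33 of the 47 (70.2%), beside 11.6% of 11606 promoters of genes tested and 16.6% of all 27305 promoters. Within 100 bases of the start the share was 61.7%, beside 4.63% of promoters of genes tested. The CCAAT box, searched on both strands and therefore also read as ATTGG, was present in 33 of the 47 (70.2%), beside 36.4%, and both elements in 25 of the 47 (53.2%), beside 4.87%. The hexamer was present in 22 of 31 promoters of called genes (71%) and in 11 of 16 promoters of genes not called (68.8%). Both elements were present in 16 of the 31 (51.6%) and in 9 of the 16 (56.2%). Of the DNA replication genes, 2 of 33 promoters (6.06%) had it, and of the mitotic kinesins 10 of 12 (83.3%). These are letter matches in the reference, not measured binding.

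**Figure D3:**
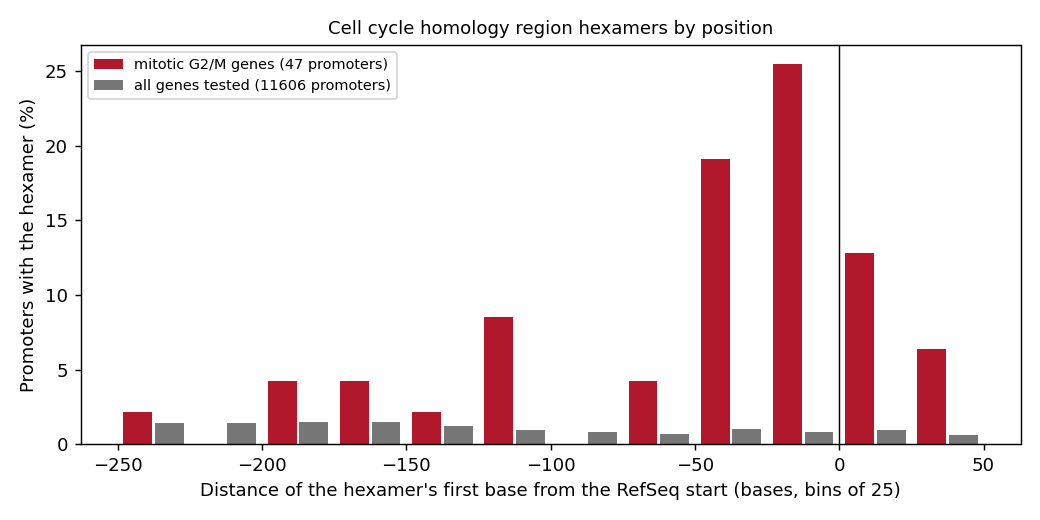
Share of promoters with TTTGAA or TTCGAA on either strand, by distance of the first base from the RefSeq start in bins of 25 bases, for 47 mitotic G2/M genes (red) and 11606 genes tested (grey). The red bars are highest in the 25 bases before the start (25.5%, against 0.81% of genes tested) and in the 25 before those (19.1%, against 1.04%).

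The 120 bases before the start are printed for 10 genes that show the range of arrangements and of responses, read 5′ to 3′ on the gene's strand, with TTTGAA and the CCAAT box, in either orientation, in capitals. In CCNB2, CKS1B, PLK1, CDC20 and PRC1, all called higher, TTTGAA stands with CCAAT boxes:
CCNB2: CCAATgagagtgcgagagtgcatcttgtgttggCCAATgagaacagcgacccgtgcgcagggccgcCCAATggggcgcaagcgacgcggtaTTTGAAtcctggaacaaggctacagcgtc
CKS1B: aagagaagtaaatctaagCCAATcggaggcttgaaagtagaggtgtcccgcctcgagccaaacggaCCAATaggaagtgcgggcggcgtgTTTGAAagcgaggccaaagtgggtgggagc
PLK1: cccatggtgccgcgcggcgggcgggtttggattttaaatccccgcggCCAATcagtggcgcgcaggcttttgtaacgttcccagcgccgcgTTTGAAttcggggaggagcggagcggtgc
CDC20: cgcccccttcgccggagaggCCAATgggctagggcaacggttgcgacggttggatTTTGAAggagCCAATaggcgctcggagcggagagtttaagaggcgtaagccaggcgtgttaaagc
PRC1: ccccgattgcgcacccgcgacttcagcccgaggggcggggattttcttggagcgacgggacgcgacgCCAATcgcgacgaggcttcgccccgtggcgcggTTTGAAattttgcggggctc
BUB1B (called) and NCAPG (not called) have TTTGAA near the start and no CCAAT in these 120 bases, and in CDCA8 (not called) TTTGAA overlaps ATTGG:
BUB1B: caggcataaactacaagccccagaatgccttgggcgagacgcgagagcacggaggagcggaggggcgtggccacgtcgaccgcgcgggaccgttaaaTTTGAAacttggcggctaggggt
NCAPG: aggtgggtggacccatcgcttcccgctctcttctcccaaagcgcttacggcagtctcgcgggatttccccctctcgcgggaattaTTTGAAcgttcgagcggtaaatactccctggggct
CDCA8: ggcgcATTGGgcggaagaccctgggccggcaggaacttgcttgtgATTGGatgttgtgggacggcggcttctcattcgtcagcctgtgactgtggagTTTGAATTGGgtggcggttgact
CCNB1 and TOP2A, both called, have 2 CCAAT boxes each in these 120 bases and no copy of the hexamer:
CCNB1: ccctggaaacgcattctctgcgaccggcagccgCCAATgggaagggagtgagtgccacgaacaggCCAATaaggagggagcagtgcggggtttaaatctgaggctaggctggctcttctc
TOP2A: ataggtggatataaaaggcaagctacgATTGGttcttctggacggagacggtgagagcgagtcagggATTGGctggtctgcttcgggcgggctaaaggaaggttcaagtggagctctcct

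The positions are chr15:59105026-59105145 (+ strand) for CCNB2, chr1:154974561-154974680 (+ strand) for CKS1B, chr16:23678769-23678888 (+ strand) for PLK1, chr1:43358861-43358980 (+ strand) for CDC20, chr15:90994536-90994655 (- strand) for PRC1, chr15:40160949-40161068 (+ strand) for BUB1B, chr4:17810859-17810978 (+ strand) for NCAPG, chr1:37692396-37692515 (+ strand) for CDCA8, chr5:69167030-69167149 (+ strand) for CCNB1 and chr17:40417897-40418016 (- strand) for TOP2A. Counted backwards from -1 at the last base before the start, TTTGAA begins at -29 in CCNB2, -30 in CKS1B, -29 in PLK1, -65 in CDC20, -20 in PRC1, -23 in BUB1B, -35 in NCAPG and -23 in CDCA8. TOP2A has the hexamer further out, beginning at -194 and, on the other strand, at -151. The promoter of CDC25B, the gene with the smallest p of the 57, held neither element in the 250 bases before or the 50 bases after the start.

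Among the cyclins, CDK1 partners and mitotic entry factors, 8 of 9 rose (median log2 fold change 0.28). CCNB1, the B-type cyclin that activates CDK1, had 20381, 19789 and 19030 normalized counts in siDNp63 libraries, against 14198, 15499 and 15517 in siCTRL libraries. The groups were separate, with siCTRL replicate 1 the lowest library, and the log2 fold change was 0.39 (SE 0.05, adjusted p = 5.95e-04). CDK1, the mitotic kinase itself, had 13205, 12113 and 12610 normalized counts in siDNp63 libraries, against 9191, 9798 and 9957 in siCTRL libraries. Its change equalled that of its cyclin, with a log2 fold change of 0.39 (SE 0.05, adjusted p = 6.05e-04). The phosphatase CDC25B, which removes the inhibitory phosphates from CDK1, had 10319, 10872 and 10357 normalized counts in siDNp63 libraries, against 7003, 6941 and 6712 in siCTRL libraries. It rose by 0.61 (SE 0.04, adjusted p = 2.12e-05), with less spread within either group than between them. Of the others, the CDK-binding subunit CKS1B rose by 0.38, CDC25C by 0.28, the B-type cyclin CCNB2 by 0.26, CDCA3, a trigger of WEE1 turnover, by 0.26 and the A-type cyclin CCNA2 by 0.24. The calls of CDC25C (0.19, adjusted p = 0.0536) and CDCA3 (0.21, adjusted p = 0.111) were lost on log2(TPM + 1). CKS2, the paralog of CKS1B, was not called (log2 fold change 0.13, adjusted p = 0.0852).

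Kinases that belong to a complex or checkpoint are given with it, and all 6 of the remaining mitotic kinases rose (median 0.36). PBK, a serine/threonine kinase active in mitosis, had 3998, 3783 and 3835 normalized counts in siDNp63 libraries, against 2628, 2600 and 2881 in siCTRL libraries. The log2 fold change was 0.52 (SE 0.05, adjusted p = 1.69e-04), the largest of the 6. MELK, a kinase of the AMPK family that peaks in mitosis, had 8838, 8427 and 8166 normalized counts in siDNp63 libraries, against 6023, 6132 and 6373 in siCTRL libraries, a log2 fold change of 0.46 (SE 0.04, adjusted p = 1.69e-04). PLK4, which starts centriole duplication, had 3110, 2781 and 2941 normalized counts in siDNp63 libraries, against 2225, 2233 and 2351 in siCTRL libraries. Its log2 fold change was 0.37 (SE 0.05, adjusted p = 0.00101), and on log2(TPM + 1) it was 0.28 and not called (adjusted p = 0.0957). PLK1, the polo kinase of mitotic entry and exit, rose by 0.35, the spindle pole kinase AURKA by 0.23 and NEK2, which splits the centrosomes, by 0.22. On log2(TPM + 1) AURKA (0.15, adjusted p = 0.0606) and NEK2 (0.13, adjusted p = 0.147) were not called.

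The chromosomal passenger complex corrects kinetochore attachments and later marks the cleavage plane, and 0 of its 4 genes were called by edgeR (median 0.09), with 1 at an unadjusted p under 0.05, 1 by DESeq2 and 0 by limma-voom. BIRC5 (survivin) had 4482, 5421 and 4952 normalized counts in siDNp63 libraries, against 4309, 4330 and 4382 in siCTRL libraries. All siDNp63 libraries were above all siCTRL libraries, but siDNp63 replicate 1 only slightly, and the log2 fold change was 0.19 (SE 0.07, adjusted p = 0.0572). The scaffold INCENP had 1487, 1779 and 1844 normalized counts in siDNp63 libraries, against 1647, 1614 and 1532 in siCTRL libraries, a log2 fold change of 0.09 (SE 0.08, adjusted p = 0.419). Here siDNp63 replicate 1 lay below every siCTRL library. Without that library both genes were called, BIRC5 with a log2 fold change of 0.26 (adjusted p = 0.00301) and INCENP with 0.18 (adjusted p = 0.0152), and BIRC5 was also the gene that DESeq2 called (log2 fold change 0.20, adjusted p = 0.0228). CDCA8 (borealin) had 5776, 5496 and 5188 normalized counts in siDNp63 libraries, against 5084, 5255 and 5130 in siCTRL libraries, which overlapped (log2 fold change 0.09, SE 0.05, adjusted p = 0.185). The kinase of the complex, AURKB, had the smallest change of the 57 genes (log2 fold change 0.02, 95% interval -0.13 to 0.17, adjusted p = 0.845).

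Of the 5 spindle checkpoint genes 3 rose (median 0.16). TTK, the kinase at the head of the checkpoint, had 6349, 5971 and 6040 normalized counts in siDNp63 libraries, against 4214, 4731 and 4805 in siCTRL libraries. The log2 fold change was 0.42 (SE 0.06, adjusted p = 9.90e-04), with siCTRL replicate 1 the lowest of the 6 libraries. BUB1B, which encodes the checkpoint inhibitor BUBR1, had 11810, 11055 and 11233 normalized counts in siDNp63 libraries, against 9189, 9385 and 9700 in siCTRL libraries (log2 fold change 0.27, SE 0.04, adjusted p = 0.00175). On log2(TPM + 1) BUB1B was at the threshold (0.16, adjusted p = 0.0501). The kinetochore kinase BUB1 had 6682, 6491 and 6331 normalized counts in siDNp63 libraries, against 5554, 5830 and 6020 in siCTRL libraries. Its log2 fold change was 0.16 (SE 0.04, adjusted p = 0.022), and its call was lost without siCTRL replicate 1 (adjusted p = 0.064), without siCTRL replicate 2 (adjusted p = 0.0664), with library size alone (0.08, adjusted p = 0.141), with upper quartile scaling (0.12, adjusted p = 0.0502) and on log2(TPM + 1) (0.05, adjusted p = 0.584). MAD2L1 and BUB3, the other parts of the inhibitory complex, had log2 fold changes of 0.10 (adjusted p = 0.101) and 0.09 (adjusted p = 0.183).

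Genes of anaphase onset and cohesin protection were divided, with 3 of 6 called (median 0.22). CDC20, which the checkpoint restrains and which then activates the APC/C, had 13223, 14545 and 13709 normalized counts in siDNp63 libraries, against 9346, 9880 and 9600 in siCTRL libraries. It rose by 0.53 (SE 0.05, adjusted p = 1.05e-04) with groups far apart. Of the 31-base words of CDC20 transcripts 20.6% also occur in CDC20P1, so the level of CDC20 could hold reads of that gene. UBE2C, the ubiquitin-conjugating enzyme of the APC/C, had 2723, 2970 and 2669 normalized counts in siDNp63 libraries, against 2145, 2188 and 2241 in siCTRL libraries (log2 fold change 0.35, SE 0.05, adjusted p = 0.00136). SGO1 (shugoshin), which shields centromeric cohesin, had 1158, 1106 and 1123 normalized counts in siDNp63 libraries, against 924, 927 and 887 in siCTRL libraries. Its log2 fold change of 0.31 (SE 0.05, adjusted p = 0.00296) was 0.29 and not called on log2(TPM + 1) (adjusted p = 0.0594). The APC/C substrate and separase itself were not called: securin PTTG1 had a log2 fold change of 0.13 (adjusted p = 0.0577), separase ESPL1 0.06 (adjusted p = 0.377), and the second shugoshin SGO2 0.12 (adjusted p = 0.17). PTTG1 was called without siDNp63 replicate 3 (0.17, adjusted p = 0.0322) and by DESeq2 (0.14, adjusted p = 0.0283).

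Among 9 centromere and kinetochore genes 6 rose (median 0.19). HJURP, the chaperone that deposits CENPA at centromeres, had 3829, 3621 and 3524 normalized counts in siDNp63 libraries, against 2709, 2794 and 2680 in siCTRL libraries. It showed the largest change of the group, with a log2 fold change of 0.42 (SE 0.04, adjusted p = 2.39e-04). SPC24, a subunit of the microtubule-binding NDC80 complex, had 1632, 1614 and 1559 normalized counts in siDNp63 libraries, against 1340, 1426 and 1350 in siCTRL libraries (log2 fold change 0.22, SE 0.05, adjusted p = 0.00878). KNL1, the kinetochore scaffold on which BUB1 docks, had 15541, 12978 and 14581 normalized counts in siDNp63 libraries, against 11381, 11583 and 12013 in siCTRL libraries. The siDNp63 libraries were more spread than the siCTRL libraries, and the log2 fold change was 0.30 (SE 0.07, adjusted p = 0.0091). Neither gene was called on log2(TPM + 1), where SPC24 had 0.03 (adjusted p = 0.776) and KNL1 0.10 (adjusted p = 0.554). NDC80 and NUF2, the other pair of the same complex, each rose by 0.19 and the centromeric histone CENPA by 0.18, while SPC25 (0.04, adjusted p = 0.771), the motor CENPE (0.05, adjusted p = 0.653) and the kinetochore protein CENPF (0.16, adjusted p = 0.132) were not called. CENPF was called without siDNp63 replicate 2 (0.24, adjusted p = 0.0193). NDC80 lost its call without siCTRL replicate 1 (adjusted p = 0.0743), siCTRL replicate 2 (adjusted p = 0.0529) or siDNp63 replicate 3 (adjusted p = 0.0707), and CENPA without siCTRL replicate 2 (adjusted p = 0.0965) or siCTRL replicate 3 (adjusted p = 0.0669). With library size alone and on log2(TPM + 1) NDC80, NUF2 and CENPA had log2 fold changes of 0.09 to 0.13 and were not called, and CENPA was not called with upper quartile scaling either (0.13, adjusted p = 0.073).

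Chromosome structure genes included the largest change of the 57, and 5 of 7 rose (median 0.28). TOP2A, the topoisomerase that untangles sister chromatids, had 47338, 41702 and 44287 normalized counts in siDNp63 libraries, against 27350, 29237 and 30342 in siCTRL libraries. The lowest siDNp63 library was well above the highest siCTRL library, and the log2 fold change was 0.62 (SE 0.06, adjusted p = 1.41e-04). NCAPH, the kleisin subunit of condensin I, had 5631, 5580 and 5423 normalized counts in siDNp63 libraries, against 3965, 4056 and 4089 in siCTRL libraries (log2 fold change 0.46, SE 0.04, adjusted p = 6.02e-05). CDCA2, which brings protein phosphatase 1 to anaphase chromatin, had 4450, 3929 and 3881 normalized counts in siDNp63 libraries, against 2971, 3080 and 3020 in siCTRL libraries (log2 fold change 0.43, SE 0.06, adjusted p = 8.11e-04). The condensin ATPase SMC4 rose by 0.28, whereas its partner SMC2 (0.08, adjusted p = 0.378) and the condensin I subunit NCAPG (0.08, adjusted p = 0.135) were not called. MKI67, the proliferation antigen Ki-67 that coats mitotic chromosomes, rose by 0.14 (SE 0.04, adjusted p = 0.024), and its mean was 104 TPM in siDNp63 and 105 TPM in siCTRL libraries. Its call was lost without siCTRL replicate 1 (adjusted p = 0.0607), without siCTRL replicate 2 (adjusted p = 0.0617), with library size alone (0.06, adjusted p = 0.211), with upper quartile scaling (0.09, adjusted p = 0.0577) and on log2(TPM + 1), where its log2 fold change was -0.01 (adjusted p = 0.878). SMC4 was not called on log2(TPM + 1) (0.24, adjusted p = 0.0719).

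Of 9 spindle and cytokinesis genes 6 rose (median 0.32). ECT2, the exchange factor that activates RhoA at the cleavage furrow, had 42383, 36905 and 39016 normalized counts in siDNp63 libraries, against 24607, 25820 and 26887 in siCTRL libraries. Its log2 fold change was 0.61 (SE 0.06, adjusted p = 1.49e-04), close to that of TOP2A. Anillin (ANLN), which links RhoA to the contractile ring, had 16383, 14518 and 15262 normalized counts in siDNp63 libraries, against 11176, 11715 and 12192 in siCTRL libraries (log2 fold change 0.40, SE 0.05, adjusted p = 0.00105). PRC1, which bundles the microtubules of the central spindle, had 11412, 10889 and 10625 normalized counts in siDNp63 libraries, against 8031, 8786 and 8743 in siCTRL libraries. The log2 fold change was 0.37 (SE 0.05, adjusted p = 9.05e-04), but 60.1% of the 31-base words of PRC1 transcripts also occur in other annotated genes, so its reads could be divided between them. The same holds for the microtubule bundler NUSAP1, which rose by 0.32 and shares 84.6% of its words, while DLGAP5 (HURP), which stabilizes kinetochore fibres, rose by 0.38 and TPX2, which activates AURKA on the spindle, by 0.26. ASPM (0.23, adjusted p = 0.0545), HMMR (0.11, adjusted p = 0.143) and TACC3 (0.10, adjusted p = 0.31), which all act on spindle poles or spindle microtubules, were not called. ASPM was called without siDNp63 replicate 2 (0.31, adjusted p = 0.00481), with no filter on low counts (adjusted p = 0.0292) and by DESeq2 (adjusted p = 0.00845), and TACC3 without siDNp63 replicate 1 (0.19, adjusted p = 0.00314). On log2(TPM + 1) NUSAP1 was not called (0.22, adjusted p = 0.15).

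Both transcription factors of the mitotic programme rose. FOXM1 had 14103, 14564 and 13591 normalized counts in siDNp63 libraries, against 9650, 10357 and 9902 in siCTRL libraries, a log2 fold change of 0.50 (SE 0.04, adjusted p = 1.03e-04). FOXM1 shares 17.4% of its 31-base words with other genes, mostly ITFG2, so its level could hold reads of that gene. MYBL2 (B-MYB) had 6044, 8128 and 7752 normalized counts in siDNp63 libraries, against 5242, 5312 and 4992 in siCTRL libraries. The siDNp63 replicate 1 library was again apart, here towards siCTRL, and the log2 fold change was 0.50 with an SE at the top of the range over the 57 genes (SE 0.10, adjusted p = 0.00699).

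**Figure D4:**
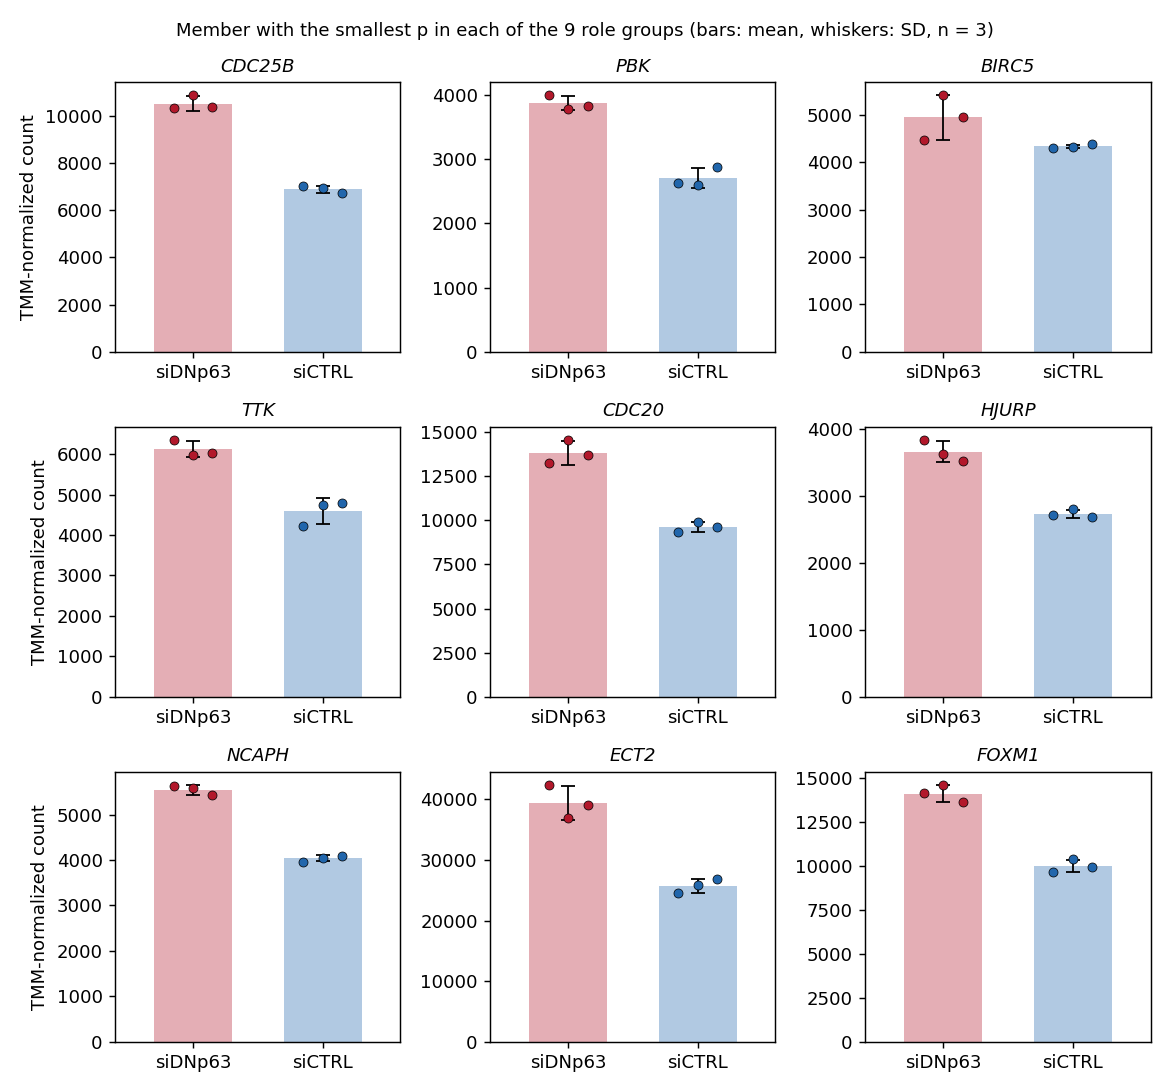
TMM-normalized counts in the 3 siDNp63 (red, left) and 3 siCTRL (blue, right) libraries for the gene with the smallest p in each of the 9 role groups, with points for libraries, bars for means and whiskers for SD. The genes were picked by p, so the separation of the 2 sets of points follows largely from that choice and is no result. The margin is smallest for BIRC5, which was not called (4482 in the lowest siDNp63 library, against 4382 in the highest siCTRL library).

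Partners that work in 1 complex or as paralogs can be compared by their ratio within a library. The 10 pairs compared were chosen after their values were seen, and the share of all gene pairs without overlap was not computed. The number of pairs without overlap is therefore no result about these genes. An exact permutation test of 3 libraries against 3 cannot go below p = 0.1, so it decides nothing here. The ratio of NCAPH to NCAPG normalized counts was 0.94, 0.99 and 0.92 in siDNp63 libraries, against 0.73, 0.73 and 0.73 in siCTRL libraries, and the log2 ratio differed by 0.38 (SE 0.03). The ratio of CDC25B to CDC25C was 6.39, 6.51 and 6.61 in siDNp63 libraries, against 5.42, 5.12 and 5.00 in siCTRL libraries (difference 0.33, SE 0.04). For CKS1B over CKS2 the ratio was 1.72, 1.81 and 1.79 in siDNp63 libraries, against 1.48, 1.46 and 1.52 in siCTRL libraries (difference 0.25, SE 0.03). The difference in log2 ratio was 0.32 for TTK over MAD2L1, 0.24 for HJURP over CENPA, 0.21 for AURKA over AURKB, 0.19 for SMC4 over SMC2, 0.19 for SGO1 over SGO2 and 0.13 for CCNB1 over CCNB2, all without overlap between the groups. Only PLK4 over PLK1 overlapped, with a difference of 0.03 (SE 0.11). NCAPG shares 37.4% of its 31-base words with other genes, mostly LCORL, so its level could hold reads of that gene. The same limit holds to a lesser degree for SMC4 (20.2%, mostly TRIM59), CKS1B (18.7%), SGO1 (16.8%), AURKA (16.4%, mostly RAB3GAP2) and PLK1 (15.6%). The remaining genes of the pairs share at most 8.7%.

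In 5 further lists, of the APC/C, mitotic entry regulators and other kinetochore, spindle, and condensin or cohesin genes, 35 of 91 genes rose (38.5%) and 12 fell (median 0.11). Beside this, 18.4% of all genes tested and 26.4% of genes with at least 500 normalized counts were called higher. Of all genes tested, 15.2% were called lower. The APC/C list, with 17 genes, had 3 higher (17.6%) and 3 lower (median -0.09), so its share called higher is near the background. Its subunits ANAPC5 and ANAPC10 fell by 0.36 (adjusted p = 2.16e-04) and 0.37 (adjusted p = 0.0096), and its inhibitor FBXO5 (EMI1) rose by 0.33 (adjusted p = 0.00121). Of 8 mitotic entry regulators 3 rose (37.5%) and 3 fell (median 0.14). The kinase MASTL (Greatwall), which keeps phosphatase PP2A inhibited in mitosis, rose by 0.62 (adjusted p = 2.03e-05), the CDK phosphatase CDKN3 by 0.52 (adjusted p = 1.11e-04) and the CDK1-inhibiting kinase WEE1 by 0.46 (adjusted p = 3.73e-04).

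Of 29 other kinetochore and centromere genes 13 rose (44.8%) and 3 fell (median 0.16). CENPP fell by 0.73 (adjusted p = 3.00e-05), while CENPN rose by 0.58 (adjusted p = 5.18e-05) and CENPU by 0.44 (adjusted p = 1.18e-04), although all 3 belong to the constitutive centromere network. Among 24 other spindle and cytokinesis genes 10 rose (41.7%) and 2 fell (median 0.11). FAM83D, which helps align chromosomes, was up by 0.51 (adjusted p = 6.37e-05). The abscission factor CEP55 was at -0.47 (adjusted p = 7.01e-05) and the augmin subunit HAUS4 at -0.59 (adjusted p = 1.18e-04). Of 13 other condensin and cohesin genes 6 rose (46.2%) and 1 fell (median 0.15). They were led by the condensin II subunit NCAPG2 at 0.57 (adjusted p = 7.64e-05), the cohesin subunit STAG1 at 0.39 (adjusted p = 3.49e-04) and CDCA5 (sororin), which protects cohesin, at 0.34 (adjusted p = 4.55e-04). Of 12 mitotic kinesins 4 rose (33.3%) and none fell (median 0.16), beside 26.4% called higher of genes with at least 500 normalized counts. Called kinesins included the central spindle motor KIF23 at 0.48 (adjusted p = 2.05e-04) and the chromokinesin KIF4A at 0.30 (adjusted p = 0.00147). KIF18A, which dampens chromosome movement, was at 0.37 (adjusted p = 0.00452).

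The DREAM and MuvB complexes repress and then activate late cell cycle genes. In a list of 14 genes of these complexes and of related E2F and MYB family factors, 4 rose (28.6%) and 1 fell (median 0.06). Among genes with at least 500 normalized counts 26.4% were called higher, so this share is near the background. The E2F family members E2F5 and E2F8 rose by 0.83 (adjusted p = 4.94e-04) and 0.45 (adjusted p = 0.00145), and the MuvB subunit LIN9 by 0.35 (adjusted p = 6.62e-04). Of 5 genes linked to G2 arrest 2 fell and none rose (median 0.19). BTG2, an antiproliferative gene, had 773, 752 and 749 normalized counts in siDNp63 libraries, against 2027, 2130 and 2042 in siCTRL libraries, a log2 fold change of -1.45 (adjusted p = 1.42e-06). The CDK inhibitor gene CDKN1A (p21) had a log2 fold change of -0.20 (adjusted p = 0.00652). The stress gene GADD45A (0.22, adjusted p = 0.0984), the G2 arrest factor RPRM (0.30, adjusted p = 0.183) and SFN (14-3-3 sigma; 0.19, adjusted p = 0.431) were not called. No gene of the 5 was called higher by DESeq2 or limma-voom either, and 1 was higher at an unadjusted p under 0.05. Of 38 DNA replication and G1/S genes 15 rose (39.5%) and 3 fell (median 0.12). The G1/S cyclin CCNE1 was at -0.87 (adjusted p = 6.87e-05), the ribonucleotide reductase subunit RRM1 at -0.34 (adjusted p = 4.41e-04) and the replication checkpoint mediator CLSPN at 0.37 (adjusted p = 3.73e-04).

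**Figure D5:**
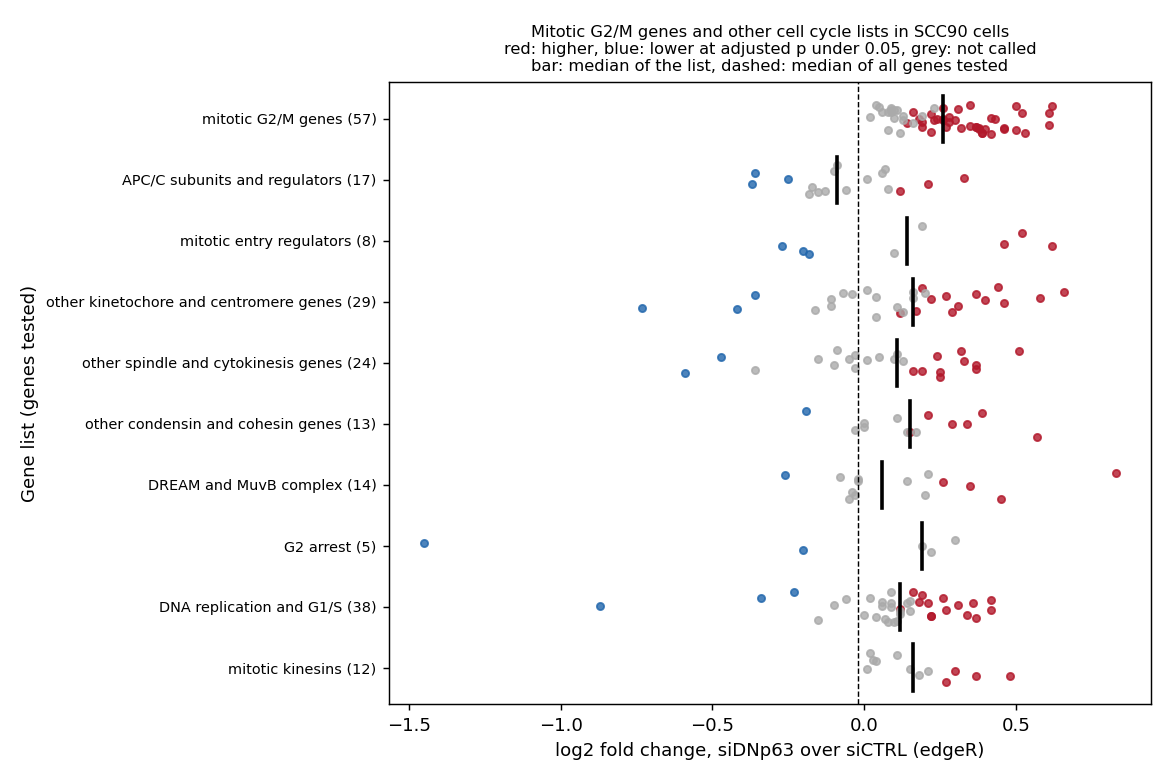
Log2 fold change, siDNp63 over siCTRL, of every gene tested in the mitotic G2/M genes and 9 other cell cycle lists, with the list median as a bar and the median of all genes tested (-0.02) as a dashed line. The mitotic G2/M genes have no point below 0 with TMM scaling (51 of 57 above 0 with library size alone) and a median of 0.26, and the other medians run between -0.09 for the APC/C and 0.19 for the G2 arrest genes.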

How the data were processed

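The 6 libraries were single-end, stranded and made from poly(A) RNA. The submitters' processing notes name bcl2fastq 2.17.1.14, kallisto 0.46.2 and the build hg38. The expected counts deposited by the authors are kallisto estimates summed per Ensembl gene and not scaled between libraries, and the TPM values deposited by the authors are length-normalized and sum to 1000000 in every library. The methods of the study give default options for kallisto, which do not use the strand, so reads of overlapping genes may be shared. The annotation release is not given in these sources. Gene names came from a name table that matched 35538 of 40488 IDs.

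Expected counts were rounded, filtered with edgeR 4.0.16 (filterByExpr, minimum count 10), scaled by TMM and fitted with the quasi-likelihood model with the group as the only term, on R 4.3.3, with Benjamini-Hochberg adjustment over 17257 genes. Library totals ran between 35716277 and 52598831, and each of the 57 genes averaged at least 668 normalized counts in siCTRL, so the spread between libraries and not counting limits the precision. The script was tested on simulated data, with planted changes larger than those of most of the 57 genes. That test therefore does not cover changes as small as theirs. The labels do not say that replicates are separate cultures, so p-values cover only library-to-library spread, part of which may be technical. No 2 libraries of a group agreed within counting noise (chi-square per degree of freedom at least 4.54). Members and lists were chosen with earlier results of these data known, so no list was tested. Values in every library are given for TP63 and for the 3 members of each role group with the smallest p. Of each other list up to 3 genes with the smallest p were named, and every gene of the G2 arrest list. A result for 1 other gene is not reported here. BTG2 is also given by library, chosen after its values were seen. Alternatives were other scalings, DESeq2 1.42.0, limma-voom and limma 3.58.1 on log2(TPM + 1), no filter on low counts and a minimum of 50, a replicate block, and leaving out each library. Shared transcript sequence was counted as 31-base words in GENCODE 44. Promoter sequences are from RefSeq, GRCh38.p14.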

Additional observations from a re-analysis of the deposited data

How the results depend on the processing

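Across 15 alternatives, 23 of the 39 genes called higher were called in every one, and none of the 57 was called lower. The number called was 23 on log2(TPM + 1) with limma, where the median log2 fold change was 0.17. The median was 0.18 with library size alone and 0.21 with upper quartile scaling. Its distance above the median of all genes was 0.28 with these scalings as with TMM. These scalings shift all genes alike, so this distance could not move between them and is no check. On log2(TPM + 1), where it could move, the distance was 0.23. Leaving out each library in turn gave 35 to 42 genes called higher and a median of 0.23 to 0.28. With the replicate block 36 genes were called higher and the median was 0.26. The numbers gave no sign of pairing: deviations of same-numbered libraries correlated at -0.012, 0.017 and 0.027, and not every library correlated best with its own number. With 3 libraries per group these values cannot show that same-numbered libraries were prepared apart. The 3 genes of the 39 that lost their call with the block were BUB1 (adjusted p = 0.0616), MKI67 (adjusted p = 0.0679) and NDC80 (adjusted p = 0.0604). Depth limits little here, since the lowest siCTRL mean is 668 normalized counts, while standard errors of 0.04 to 0.10 on the log2 scale leave changes as small as that of AURKB unresolved.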
